A study of Mus musculus with 31 samples.

Results

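The 10 genes described here belong to adenosine and purinergic signaling and were taken by symbol from the table of gene counts: the ectonucleotidases Entpd1 and Nt5e, the adenosine receptors Adora2a, Adora2b and Adora3, the nucleotide receptors P2rx4, P2rx7, P2ry2 and P2ry6, and the deaminase Ada. All 10 were found among the 24411 entries of the table and all 10 passed the filter on low counts, which left 12337 genes to test. The levels come from 9 RNA-seq libraries of monocytes of C57BL/6J mice, 3 made from blood of mice without a tumor (healthy blood), 3 from blood of mice bearing a subcutaneous tumor of Lewis lung carcinoma (LLC blood) and 3 from such tumors (LLC tumor). LLC is a mouse lung cancer line that grows in C57BL/6 hosts. In every group the cells had been sorted for CD11b and high Ly6C and against Ly6G and MHC class II. No genetic change, drug or age is given for any group, and the other 22 samples of the series (ATAC-seq, CUT&Run and CUT&Tag) were not analysed here. The labels do not say whether LLC blood and LLC tumor came from the same mice, nor whether replicates were single animals or pools, so p-values measure the spread between these libraries. Blood columns of the count table are headed BM, taken to mean blood monocyte since the sample labels name blood.

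Purinergic signaling starts when ATP and other nucleotides leave stressed or dying cells. Outside the cell, ATP opens P2X channels and, with ADP, UTP and UDP, activates P2Y receptors coupled to G proteins. The enzyme CD39 (Entpd1) removes phosphates from ATP and ADP to give AMP, and CD73 (Nt5e) turns AMP into adenosine. Adenosine then acts on its own receptors, of which those of Adora2a and Adora2b raise cyclic AMP and that of Adora3 lowers it, and it is removed by uptake, by deamination (Ada) or by phosphorylation. In tumors this route from ATP to adenosine is known for dampening immune cells, and myeloid cells are among the cells that carry both its enzymes and its receptors.

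Library totals ran from 10457492 to 20706412 estimated counts, so that 3 counts corresponded to 0.145 to 0.287 CPM (counts scaled to a common library total over all entries), the scale of every level below. Fold changes come from one edgeR quasi-likelihood fit of all 9 libraries with TMM scaling, with Benjamini-Hochberg adjustment over all 12337 genes. Genes with an adjusted p under 0.05 are said to be called. TMM factors were 1.03 to 1.07 in blood but 0.798, 1.00 and 0.968 in LLC tumor 1 to 3, so a fold change against tumor is somewhat larger upward than the ratio of the CPM values. The monocyte markers Itgam, Ly6c2, Ccr2, Csf1r, Cd68, Fcgr1 and Lyz2 were all detected in every library. Itgam, which encodes the sorted antigen CD11b, was at 893.2 to 949.4 CPM in healthy blood, 1337 to 1491 CPM in LLC blood and 3193 to 3720 CPM in tumor, and Ly6c2, which encodes Ly6C2, was at 1571 to 1728 CPM, 1099 to 1237 CPM and 272.4 to 472.5 CPM. Markers of other cells moved with the groups. Summed markers of NK cells were at 198.2 to 483.5 CPM in healthy blood, 27.5 to 49.6 CPM in LLC blood and 1.56 to 4.43 CPM in LLC tumor. The 6 fibroblast markers summed to 936.1, 3467 and 3921 CPM in LLC tumor 1 to 3 and to 408.9 CPM in LLC blood 1, against 1.38 to 15.5 CPM in the other 5 blood libraries. The 7 markers of LLC cells summed to 33.1, 161.5 and 130.6 CPM in LLC tumor 1 to 3 and to at most 2.36 CPM in blood. Only 3 of the 7 exceeded 3 counts in any tumor library. Most of each tumor sum was Hmga2 (22.8, 118.4 and 94.4 CPM), whose estimated counts are fractional in 8 libraries. The 8 macrophage markers had sums of 1306 to 1520.0 CPM (healthy blood), 731.4 to 768.3 CPM (LLC blood) and 1489 to 2320.4 CPM (LLC tumor). Blood sums were mostly Apoe and Adgre1 (means 1026 and 293.8 CPM in healthy blood, 330.1 and 328.8 CPM in LLC blood). From LLC blood to tumor Adgre1 fell to 190.8 CPM, Mrc1 rose from 6.95 to 391.3 CPM and C1qa from 1.76 to 191.2 CPM. C1qb, C1qc and Mertk also rose (log2 fold changes 5.77, 6.61 and 4.76), Apoe rose less (1.36) and Trem2 was not called (0.37). The part of macrophage transcripts in the tumor differences was not tested. In bulk RNA, fewer cells of a type and less RNA per cell cannot be told apart.

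In LLC blood against healthy blood, 3 of the 10 genes were called, P2ry2 and Adora3 higher and Adora2a lower. Over all tested genes 23.6% were called in that comparison, 14% higher and 9.61% lower. In LLC tumor against LLC blood, 7 of 10 were called, Entpd1, Nt5e, Adora2b, Adora3, P2ry2 and P2ry6 higher and P2rx7 lower. The background there was 61.3% of all genes called, with 29.6% higher and 31.7% lower. In LLC tumor against healthy blood, 6 of 10 were called, Entpd1, Nt5e, Adora2b, Adora3 and P2ry2 higher and P2rx7 lower, beside 66.5% of all genes (33.5% higher, 33.0% lower). The share of the 10 genes called was thus near that of all genes in each comparison. The median log2 fold change of the 10 was 0.01, 0.74 and 0.72 in these 3 comparisons, against -0.01, -0.03 and -0.00 over all tested genes. In these comparisons 4, 6 and 6 of the 10 genes had groups that did not overlap in CPM, as did 51.3%, 68.3% and 70.6% of all tested genes. The comparisons share libraries, since each group enters 2 of them.

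**Figure D1:**
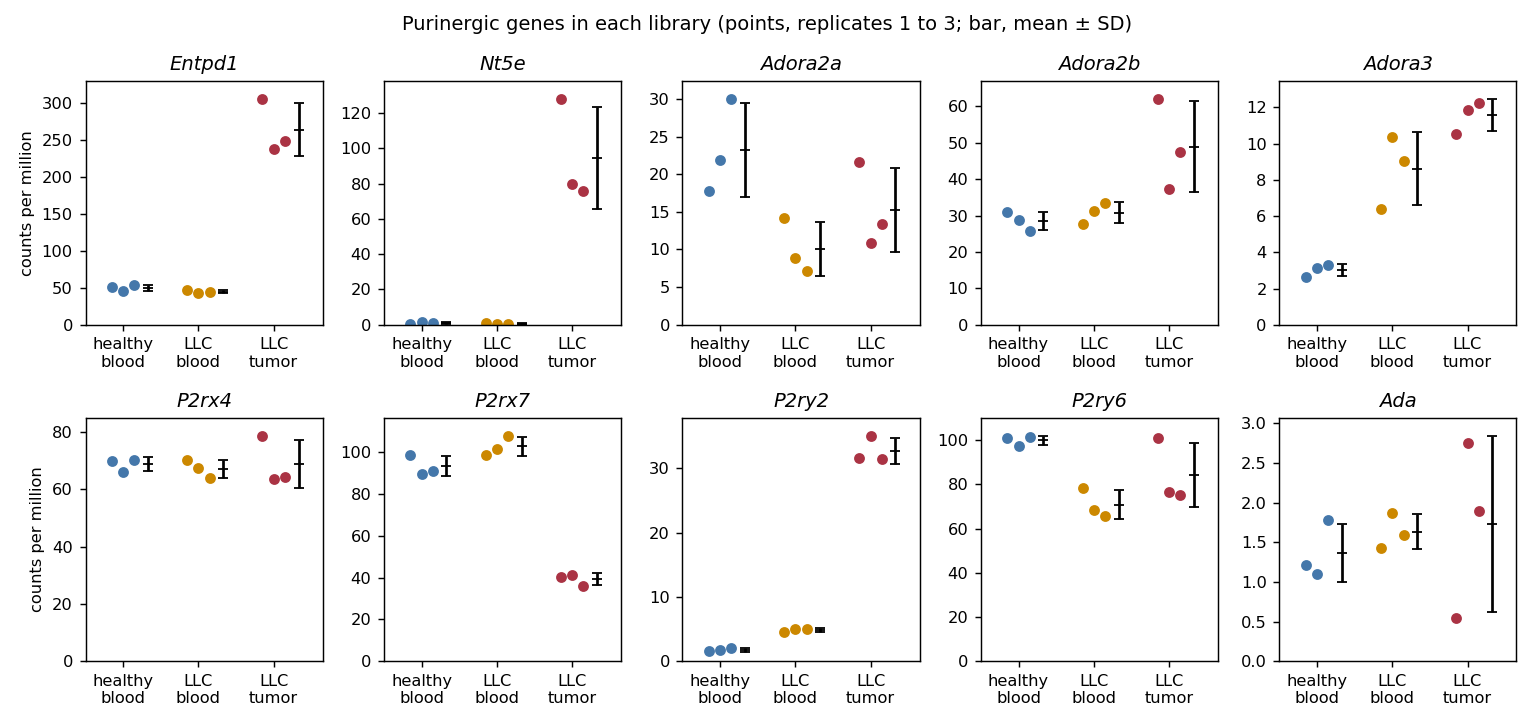
CPM (vertical axis, linear, from 0) of each of the 10 genes in the 3 healthy blood, 3 LLC blood and 3 LLC tumor libraries; points are replicates 1 to 3 from left to right and the bar gives mean ± SD. Entpd1, Nt5e and P2ry2 stand apart in tumor, P2rx7 is lower there, and P2rx4 and Ada overlap between all groups.

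**Figure D2:**
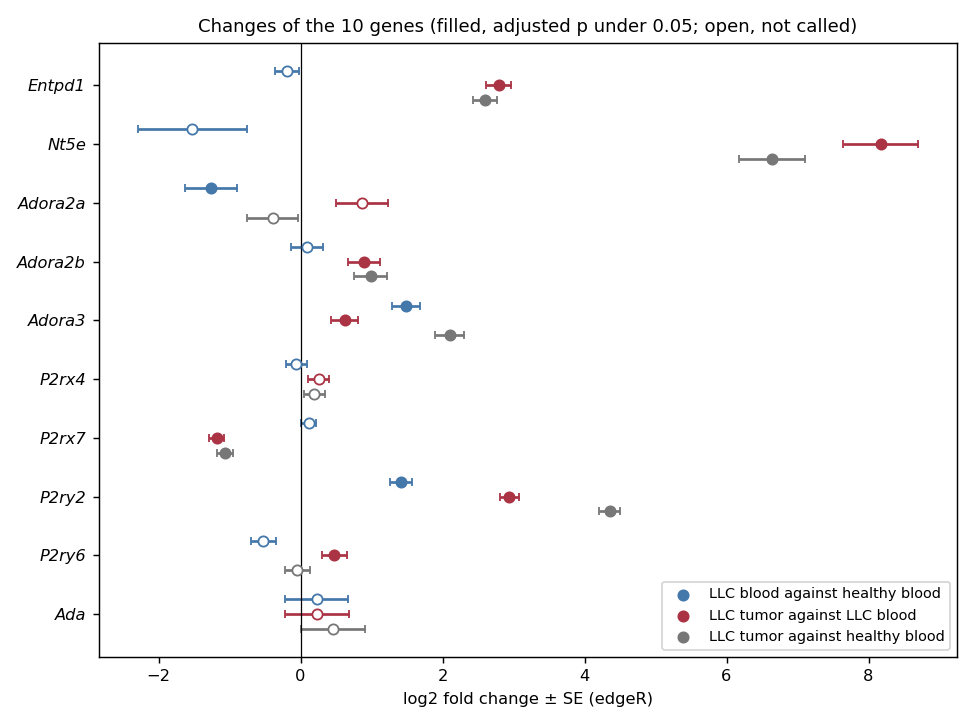
Log2 fold change ± SE (edgeR, horizontal axis) of the 10 genes in the 3 comparisons; filled points have an adjusted p under 0.05. Nt5e has the widest difference in both tumor comparisons, and Adora3 and P2ry2 are the 2 genes with filled points above 0 in all 3.

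Of the 5 genes called higher in both tumor comparisons, 4 shared a motif upstream of their start. Their upstream sequences, and that of P2rx7, the gene that was lower, are printed so that the letters can be read beside the levels. They are the 250 bases before the outermost start site in RefSeq (GRCm38.p6, which is mm10, the build listed in the submitters' processing notes), 5′ to 3′ on the gene's own strand. Capitals mark matches to ACGTG or GCGTG, the core letters of the site bound by hypoxia-inducible factors, to TGANTCA, the AP-1 site, or to TGACGTCA, the cyclic AMP response element, on either strand.
Entpd1, chr19:40612116-40612365, plus strand: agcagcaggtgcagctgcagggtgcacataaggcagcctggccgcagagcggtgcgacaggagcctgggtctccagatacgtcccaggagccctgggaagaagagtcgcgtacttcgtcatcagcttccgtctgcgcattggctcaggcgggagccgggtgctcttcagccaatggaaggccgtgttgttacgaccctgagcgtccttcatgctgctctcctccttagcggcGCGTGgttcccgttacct
Nt5e, chr9:88327359-88327608, plus strand: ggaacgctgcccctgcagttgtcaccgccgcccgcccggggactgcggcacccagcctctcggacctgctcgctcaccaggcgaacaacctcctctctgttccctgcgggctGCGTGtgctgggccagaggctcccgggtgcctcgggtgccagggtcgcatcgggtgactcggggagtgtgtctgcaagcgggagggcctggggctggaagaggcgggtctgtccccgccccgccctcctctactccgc
Adora2b, chr11:62248734-62248983, plus strand: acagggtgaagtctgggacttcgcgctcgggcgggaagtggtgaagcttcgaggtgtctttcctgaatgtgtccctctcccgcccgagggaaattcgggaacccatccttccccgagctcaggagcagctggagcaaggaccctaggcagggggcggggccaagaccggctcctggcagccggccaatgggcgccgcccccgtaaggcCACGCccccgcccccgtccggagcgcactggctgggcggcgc
P2ry2, chr7:101012054-101012303, minus strand: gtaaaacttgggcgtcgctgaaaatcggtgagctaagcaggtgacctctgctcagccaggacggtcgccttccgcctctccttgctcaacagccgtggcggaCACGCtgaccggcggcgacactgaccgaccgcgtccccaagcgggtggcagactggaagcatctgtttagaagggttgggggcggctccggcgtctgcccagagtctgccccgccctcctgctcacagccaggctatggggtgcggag
P2rx7, chr5:122643677-122643926, plus strand: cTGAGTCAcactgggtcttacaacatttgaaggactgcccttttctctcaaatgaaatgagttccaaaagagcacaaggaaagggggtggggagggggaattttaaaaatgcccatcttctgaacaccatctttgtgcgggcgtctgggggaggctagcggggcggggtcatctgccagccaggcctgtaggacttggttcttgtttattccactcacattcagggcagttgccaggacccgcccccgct
Entpd1, Nt5e, Adora2b and P2ry2 each held 1 match to GCGTG in this window, starting 18, 138, 42 and 148 bases before the start site, and P2rx7 held none. The motif was found in 28.2% of all 32851 start site windows of the same length, and either of ACGTG and GCGTG in 38.6%, so a match is common. The windows of these 4 genes were rich in G and C (62.4%, 72.0%, 69.6% and 65.2%), and that of P2rx7 held 53.6%. P2rx7 had 1 TGANTCA match, 249 bases before its start, and Adora3 had 1, 98 bases before (6.75% of all windows had a match). The windows of P2rx4 and Ada matched none of the motifs, and the windows of Entpd1 and P2rx7 at a second, inner start site matched none either. An inner window of P2ry2 also held the palindrome of ACGTG, read on both strands (ACGTG was in 16.6% of windows). No window of these genes held TGACGTCA (1.55% of all windows). RefSeq windows were found for 8 of the 10 genes, all but Adora2a and P2ry6. A match is a run of letters and not a measured binding site.

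Both ectonucleotidases were far higher in tumor than in either blood group. Entpd1 (ENSMUSG00000048120, chr19:40612366-40741602) encodes CD39. It was at 50.5, 45.6 and 53.8 CPM in healthy blood 1 to 3, at 46.6, 42.6 and 44.6 CPM in LLC blood and at 305.2, 237.6 and 248.9 CPM in LLC tumor. Every tumor library lay above every blood library, while the 2 blood groups overlapped. From LLC blood to tumor Entpd1 rose by a log2 fold change of 2.79 ± 0.17 SE (6.91-fold, adjusted p 1.44e-06, edgeR), and from healthy blood to tumor by 2.60 ± 0.17 SE (adjusted p 1.71e-06). The difference between the blood groups was -0.19 ± 0.17 SE (adjusted p 0.445), and was called without LLC tumor 1 (-0.24, adjusted p 0.0360).

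Nt5e (ENSMUSG00000032420, chr9:88327609-88372089) encodes CD73, the enzyme that makes adenosine. Its estimated counts were 8, 29 and 14 in healthy blood and 9, 3 and 5 in LLC blood, against 1418, 903 and 875 in LLC tumor. These are 0.572, 1.78 and 0.858 CPM in healthy blood, 0.861, 0.207 and 0.242 CPM in LLC blood and 128.0, 80.0 and 75.6 CPM in tumor. The gene was thus near the counting floor in blood and clearly counted in all tumor libraries. The log2 fold change from LLC blood to tumor was 8.17 ± 0.53 SE (288-fold, adjusted p 1.91e-06, edgeR), and 8.86 (466-fold) without LLC blood 1, the blood library with fibroblast transcripts. From healthy blood to tumor it was 6.64 ± 0.46 SE (adjusted p 2.33e-06). Between the blood groups Nt5e differed by -1.53 ± 0.77 SE (adjusted p 0.184), with overlapping libraries. That difference was called with DESeq2 (-1.48, adjusted p 0.0383), with limma-voom (-2.02, adjusted p 0.0382) and without LLC tumor 1 (-1.59, adjusted p 0.0477).

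CD73 is also a surface marker of fibroblasts and other stromal cells, so the fibroblast markers were set beside it. Among the tumor libraries Nt5e and Entpd1 were both highest in LLC tumor 1, the library with the lowest fibroblast sum (936.1 CPM) and the lowest sum of LLC cell markers (33.1 CPM). LLC blood 1 had 408.9 CPM of fibroblast markers and 0.861 CPM of Nt5e, while LLC blood 2 and 3 had 1.38 and 1.93 CPM of these markers and 0.207 and 0.242 CPM of Nt5e. The sums differed in make-up. In LLC blood 1 most was Col1a1 and Col1a2 (212.2 and 130.6 CPM), with Dcn at 4.02 CPM. In LLC tumor 1 most was Col3a1 (713.3 CPM), with Col1a1 at 13.5 CPM and Dcn at 107.5 CPM. The sum of LLC blood 1 is thus not a like measure beside those of tumor. Entpd1 was at 46.6 CPM in LLC blood 1, close to the 42.6 and 44.6 CPM of its group. Endothelial markers, of a cell type that also carries CD39, were at 16.7 to 23.7 CPM in sum over all blood libraries and 55.5 to 72.5 CPM in tumor, most of it Pecam1. From LLC blood to tumor Pecam1, Cdh5 and Kdr rose (log2 fold changes 2.27, 2.85 and 3.36). Vwf went the other way, from 6.46 to 3.50 CPM on average (-0.70 ± 0.21 SE, adjusted p 0.0171, edgeR). The part of fibroblast, LLC and endothelial transcripts in these 2 tumor differences was not tested.

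**Figure D3:**
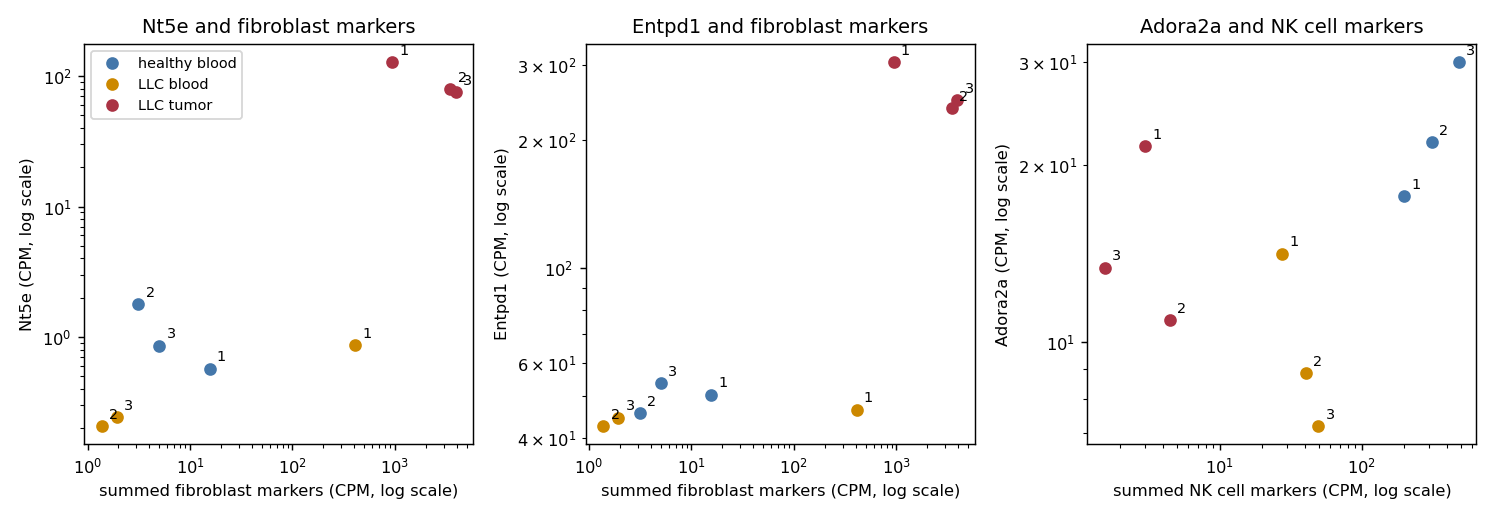
Level of Nt5e and Entpd1 against the summed fibroblast markers and of Adora2a against the summed NK cell markers in each library (all axes in CPM on a log scale; numbers are replicates). LLC tumor 1 has the highest Nt5e and Entpd1 and the lowest fibroblast sum of the 3 tumor libraries, and Adora2a in tumor stands beside NK sums of at most 4.43 CPM.

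Among the adenosine receptors, the means of Adora2b and Adora3 were lowest in healthy blood and highest in tumor, and that of Adora2a was highest in healthy blood and lowest in LLC blood. Adora2a (ENSMUSG00000020178, chr10:75316877-75334792) encodes an adenosine receptor that raises cyclic AMP. It was at 17.7, 21.9 and 30.0 CPM in healthy blood, 14.2, 8.85 and 7.20 CPM in LLC blood and 21.6, 10.9 and 13.4 CPM in LLC tumor. All LLC blood libraries lay below all healthy ones, and the tumor libraries overlapped both groups. In LLC blood it was lower by a log2 fold change of -1.26 ± 0.36 SE (adjusted p 0.0353, edgeR). That call was lost without healthy blood 2 (-1.34, adjusted p 0.0691), healthy blood 3 (-1.02, adjusted p 0.132), LLC blood 2 (-1.17, adjusted p 0.122) or LLC blood 3 (-1.05, adjusted p 0.138). From LLC blood to tumor the value was 0.86 ± 0.37 SE (adjusted p 0.0687) and was called with DESeq2 (0.91), with limma-voom (0.74), without LLC blood 1 (1.16) and without LLC tumor 2 (1.11). From healthy blood to tumor it was -0.39 ± 0.36 SE (adjusted p 0.357) and was called with limma-voom (-0.74, adjusted p 0.0111) and without LLC tumor 1 (-0.88, adjusted p 0.0237).

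The receptor is also carried by T and NK cells. In healthy blood the order of Adora2a over libraries 1 to 3 matched that of the NK markers (198.2, 311.5 and 483.5 CPM) and of the T cell markers (40.4, 104.4 and 154.6 CPM). In LLC blood the order of Adora2a was the reverse of that of the NK markers (27.5, 40.5 and 49.6 CPM). The T cell markers in LLC blood summed to 16.8, 14.5 and 15.0 CPM, mostly Cd2 (11.0, 11.1 and 10.3 CPM). That sum was highest in LLC blood 1, as Adora2a was. In tumor Adora2a was at 10.9 to 21.6 CPM with NK markers at 1.56 to 4.43 CPM. The T cell sum of 103.4 to 124.1 CPM there was made up mostly of Il7r (99.5 to 121.4 CPM), with Cd3e at most at 0.271 CPM. The part of lymphocyte transcripts in the blood difference was not tested.

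Adora2b (ENSMUSG00000018500, chr11:62248984-62266452) encodes the A2B receptor, which also raises cyclic AMP and needs more adenosine to respond than that of Adora2a. It was at 30.9, 28.8 and 25.8 CPM in healthy blood and 27.6, 31.3 and 33.4 CPM in LLC blood, which overlapped. In LLC tumor it was at 62.0, 37.2 and 47.5 CPM, above all blood libraries and with LLC tumor 1 highest. The rise from LLC blood to tumor was 0.90 ± 0.23 SE on the log2 scale (1.86-fold, adjusted p 0.00717, edgeR), and that from healthy blood 0.99 ± 0.23 SE (adjusted p 0.00397). Between the blood groups the difference was 0.09 ± 0.23 SE (adjusted p 0.817).

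Adora3 (ENSMUSG00000000562, chr3:105904421-105908928) encodes the A3 receptor, which lowers cyclic AMP. It rose in both steps, from 2.64, 3.13 and 3.31 CPM in healthy blood to 6.41, 10.4 and 9.03 CPM in LLC blood and 10.6, 11.9 and 12.3 CPM in LLC tumor, with no overlap between neighbouring groups. The change in blood was 1.48 ± 0.20 SE on the log2 scale (2.79-fold, adjusted p 0.00112, edgeR). The further rise in tumor against LLC blood was 0.62 ± 0.19 SE (adjusted p 0.0169), a call lost when only library totals were used for scaling (0.42, adjusted p 0.0965). From healthy blood to tumor the change was 2.10 ± 0.20 SE (4.28-fold, adjusted p 1.63e-05). Adora3 lies within the span of Tmigd3 on the same strand, to which the table gave 8, 8 and 8 counts in healthy blood, 1, 10 and 13 in LLC blood and 1, 2 and 1 in tumor. Reads of overlapping genes may be assigned to either. The estimated counts of Adora3 and Tmigd3 were whole in every library, and sharing of reads between them was not tested. A3 is also abundant on mast cells, and the 6 mast cell and basophil markers had sums of 0.429 to 0.614 CPM (healthy blood), 0.382 to 0.724 CPM (LLC blood) and 1.99 to 11.0 CPM (tumor). Of these, Cpa3 had at most 1 count and Fcer1a 0 counts in every blood library. In tumor Gata2 was the largest part of each sum, with 11, 79 and 73 counts in LLC tumor 1 to 3. Cpa3 had 7, 25 and 14 counts there and Kit 3, 6 and 12. Mcpt8 had 1, 6 and 4 counts, Ms4a2 0, 4 and 5, and Fcer1a 0, 4 and 0. The part of mast cell transcripts in the tumor difference was not tested.

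The 2 P2X channels went separate ways. P2rx7 (ENSMUSG00000029468, chr5:122643927-122692336) encodes the channel that opens at high ATP and is known as a trigger of the NLRP3 inflammasome. It was at 98.5, 89.6 and 91.0 CPM in healthy blood, 98.4, 101.5 and 107.6 CPM in LLC blood and 40.2, 41.4 and 36.1 CPM in LLC tumor. Every tumor library was below every blood library, and the blood groups overlapped. P2rx7 fell in tumor by a log2 fold change of -1.18 ± 0.11 SE against LLC blood (2.27-fold lower, adjusted p 1.54e-05, edgeR) and -1.07 ± 0.11 SE against healthy blood (adjusted p 2.48e-05). Between the blood groups the value was 0.11 ± 0.105 SE (adjusted p 0.469). The sum of the 6 markers of nonclassical monocytes was also lower in tumor. It was 3573 to 3649 CPM (healthy blood), 3263 to 4014 CPM (LLC blood) and 1132 to 1375 CPM (tumor). Of these markers, Nr4a1 went the other way, from 386.0 CPM on average in LLC blood to 532.6 CPM in tumor (0.69 ± 0.25 SE, adjusted p 0.0368, edgeR). The 7 dendritic cell markers summed to 80.2 to 85.8, 24.4 to 39.4 and 6.23 to 9.40 CPM. Flt3 and Cd209a among them fell from LLC blood to tumor (log2 fold changes -2.79 and -3.09). Clec9a went the other way, from 1.41 to 2.81 CPM on average (1.14 ± 0.41 SE, adjusted p 0.0352, edgeR), and Xcr1 was not called. The part of these cells in the tumor difference of P2rx7 was not tested.

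P2rx4 (ENSMUSG00000029470, chr5:122707518-122729739) encodes the P2X channel found mostly on lysosomes of macrophages and is the chromosomal neighbour of P2rx7. It was at 70.0, 65.9 and 70.4 CPM in healthy blood, 70.3, 67.4 and 64.1 CPM in LLC blood and 78.7, 63.6 and 64.5 CPM in tumor, so all 3 groups overlapped. No comparison called it, with log2 fold changes of -0.06 ± 0.15 SE in blood (adjusted p 0.809), 0.26 ± 0.15 SE in tumor against LLC blood (adjusted p 0.163) and 0.20 ± 0.15 SE in tumor against healthy blood (adjusted p 0.267). Its span overlaps that of Camkk2, on the opposite strand, over 11360 bases. Camkk2 fell from 310.8 ± 9.83 CPM in LLC blood to 64.3 ± 11.4 CPM in tumor (SD, n = 3), a log2 fold change of -2.09 ± 0.10 SE (edgeR, adjusted p 3.78e-07). The labels do not say that the counting used strand, so reads of the shared stretch may be assigned to either. That stretch is an overlap of gene spans, introns included. The estimated counts of both genes were whole in every library, and sharing of reads between them was not tested.

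The 2 P2Y receptors also differed. P2ry2 (ENSMUSG00000032860, chr7:100996568-101012053) encodes a receptor for ATP and UTP that guides phagocytes towards dying cells. It stepped up in both comparisons along the way, from 1.57, 1.72 and 2.09 CPM in healthy blood to 4.59, 4.98 and 5.07 CPM in LLC blood and 31.6, 35.0 and 31.5 CPM in LLC tumor. The groups did not overlap, and the spread within each was small. In blood the log2 fold change was 1.41 ± 0.15 SE (2.67-fold, adjusted p 0.000342, edgeR). From LLC blood to tumor it was 2.94 ± 0.13 SE (7.67-fold, adjusted p 3.08e-07), and over both steps 4.35 ± 0.15 SE (20.4-fold, adjusted p 1.12e-07). The blood counts behind these values were 22 to 34 in healthy blood and 48 to 105 in LLC blood.

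P2ry6 (ENSMUSG00000048779, chr7:100937630-100975498) encodes the UDP receptor, known for promoting phagocytosis, and neighbours P2ry2. It was at 100.7, 97.5 and 101.3 CPM in healthy blood, 78.2, 68.3 and 65.8 CPM in LLC blood and 100.9, 76.4 and 75.1 CPM in tumor. LLC blood lay below healthy blood without overlap, with a log2 fold change of -0.525 ± 0.176 SE that missed the threshold (adjusted p 0.0581, edgeR). It passed in 9 of 16 alternatives (-0.58 to -0.50 there). From LLC blood to tumor it rose by 0.48 ± 0.18 SE (adjusted p 0.0403), but the CPM values overlapped. That call was lost in 6 of 16 alternatives: with library totals only (0.25, adjusted p 0.0898), with only the 6 libraries compared (0.50, adjusted p 0.0682), and without healthy blood 1 (0.46), healthy blood 3 (0.46), LLC blood 2 (0.40) or LLC blood 3 (0.42). Tumor against healthy blood gave -0.05 ± 0.18 SE (adjusted p 0.820), and was called with limma-voom (-0.29, adjusted p 0.00869) and without LLC tumor 1 (-0.35, adjusted p 0.00525).

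Ada (ENSMUSG00000017697, chr2:163726571-163750239), adenosine deaminase, turns adenosine into inosine. It was low in all libraries, with 17, 18 and 29 counts in healthy blood, 15, 27 and 33 for LLC blood and 6, 31 and 22 for LLC tumor, or 0.542 to 2.75 CPM. The groups overlapped and Ada was called in none of the comparisons. Its log2 fold changes were 0.23 ± 0.45 SE in blood (adjusted p 0.752), 0.23 ± 0.45 SE in tumor against LLC blood (adjusted p 0.673) and 0.46 ± 0.45 SE in tumor against healthy blood (adjusted p 0.391; edgeR). The last was called with limma-voom (0.72, adjusted p 0.0484) and without LLC tumor 1 (0.81, adjusted p 0.0483). The low counts leave wide errors.

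The pattern of each gene over the 9 libraries was compared with those of 6903 or 6904 other tested genes whose mean level reached 20 CPM, by Pearson's r of log2(CPM + 1), as a description of libraries that fall into 3 groups. Nt5e was most like Cd274, which encodes PD-L1 (r = 0.999; 22.5, 17.9 and 359.3 CPM on average in healthy blood, LLC blood and tumor), Hcar2 and Hilpda. Entpd1 was most like Mmp13, Tiparp and Bnip3 (r = 0.998 to 0.999). P2ry2 was most like Afg3l2, Rlf and Wnk1, and P2rx7 most like Ugt1a7c, Sephs2 and Mtus1. Adora3 was most like Vcan, which encodes the matrix proteoglycan versican (r = 0.991; 173.3, 908.6 and 1699 CPM), Atp6v1a and Dmxl2. Such values were common, since 717 genes for Nt5e, 730 for Entpd1, 749 for P2ry2, 1659 for P2rx7 and 277 for Adora3 had an r above 0.9. Adora2a was most like Ifi205 (r = 0.954; 123.8, 33.5 and 72.6 CPM) and P2ry6 most like Prdx5 (r = 0.960), with 19 and 32 genes above 0.9. For Adora2b the closest were Tgoln1, Ifnar1 and Mrpl52 (r = 0.960 to 0.961), for Ada Wdr43 (0.947), and for P2rx4 Klf11, with 0 genes above 0.9.

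Beyond the 10 genes, 62 other genes of the pathway were listed in 4 groups, of which 49 passed the filter. In tumor against LLC blood 18 were called higher and 15 lower, with a median log2 fold change of 0.08, beside 61.3% of all tested genes called there (29.6% higher, 31.7% lower). In blood 6 were called higher and 5 lower, beside 23.6% of all tested genes. The shares of the 49 called, 33 and 11 of them, were near those of all genes. The estimated counts of P2ry10, Adcy3 and Adal are fractional in 9, 9 and 5 of the libraries, as where reads are shared between entries, so their values are less certain.

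Among genes of nucleotide release and further breakdown, 10 of 15 were tested, and 3 were higher and 2 lower in tumor against LLC blood (all genes 61.3% called). Enpp1, which splits ATP and cyclic GMP-AMP outside the cell, rose from 1.15, 1.45 and 1.01 CPM in LLC blood to 9.03, 12.9 and 8.12 CPM in tumor (log2 fold change 3.25 ± 0.31 SE, adjusted p 2.06e-05, edgeR). Entpd4, a nucleotidase of the Golgi, rose as well (1.28 ± 0.14 SE, adjusted p 3.6e-05). Panx1, which forms the channel that releases ATP, fell from 38.7 ± 0.485 to 14.4 ± 2.76 CPM (SD, n = 3; -1.24 ± 0.09 SE, adjusted p 3.84e-06, edgeR). Entpd6 fell too (-1.08 ± 0.12 SE, adjusted p 5.88e-05). In blood 2 genes were higher and 1 lower (all genes 23.6% called). Acpp, a phosphatase that can turn AMP into adenosine, rose from 4.57, 4.85 and 4.23 CPM in healthy blood to 11.6, 12.04 and 15.7 CPM in LLC blood (1.504 ± 0.24 SE, adjusted p 0.00257). Cd38, an NAD-consuming ectoenzyme, was at 1.07, 6.08 and 2.70 CPM in healthy blood and 4.21, 25.5 and 17.8 CPM in LLC blood (2.24 ± 0.68 SE, adjusted p 0.0410). Those libraries overlapped. Cd38 is also carried by B cells, whose markers summed to 201.9 CPM in healthy blood 2 and to 23.2 to 38.3 CPM in the other 5 blood libraries. The 8 neutrophil markers summed to 715.6, 899.1 and 673.2 CPM in healthy blood and 785.2, 1225 and 1069 CPM in LLC blood, mostly Csf3r and Mmp8. S100a8 among them was at 2.93, 61.3 and 4.66 CPM and then 49.9, 216.5 and 167.5 CPM. It was highest in the second library of each group, as Cd38 was. Csf3r (526.7 and 492.3 CPM) and Retnlg (2.99 and 0.678 CPM) had lower means in LLC blood than in healthy blood. The part of B cell and neutrophil transcripts in the Cd38 difference was not tested. The Cd38 call was lost without healthy blood 1 or 3, LLC blood 2 or 3, or LLC tumor 3, and the value was 2.96 without healthy blood 2.

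Of the other purinergic receptors, 6 of 12 passed the filter, and 2 were higher and 2 lower in tumor against LLC blood (all genes 61.3% called). P2rx1, an ATP-gated channel, fell from 7.75, 5.88 and 6.57 CPM to 1.35, 0.709 and 1.64 CPM (log2 fold change -2.23 ± 0.32 SE, adjusted p 0.000251, edgeR), and P2ry1, an ADP receptor, from 33.7 ± 4.00 to 10.2 ± 0.825 CPM (SD, n = 3; -1.52 ± 0.13 SE, adjusted p 8.53e-06, edgeR). P2ry14, the receptor for UDP-sugars, rose (1.35 ± 0.27 SE, adjusted p 0.00208). P2ry10, which is named as a P2Y receptor but is known to bind lipids, was at 1.79, 7.43 and 4.29 CPM in healthy blood, 0.574, 0.761 and 0.773 CPM in LLC blood and 5.24, 2.39 and 2.94 CPM in tumor. It was lower in LLC blood (-2.68 ± 0.58 SE, adjusted p 0.0102) and higher in tumor than in LLC blood (2.54 ± 0.59 SE, adjusted p 0.00427). Healthy blood 2, where P2ry10 was highest, had 201.9 CPM of B cell markers, against 23.2 and 31.5 CPM in healthy blood 1 and 3. The part of lymphocyte transcripts in its blood difference was not tested.
P2ry12, the ADP receptor known from platelets and microglia, rose in LLC blood from 10.2, 11.2 and 12.3 CPM to 20.9, 31.4 and 27.5 CPM (1.22 ± 0.18 SE, adjusted p 0.00162, edgeR). The 6 platelet markers had sums of 7.86 to 20.5 CPM (healthy blood) and 3.73 to 7.54 CPM (LLC blood), and their part in this difference was not tested. The remaining member called in blood, P2ry13, lies outside the naming rule and was chosen after its values were seen; it is also an ADP receptor and was higher (1.02 ± 0.25 SE, adjusted p 0.0182).

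Among genes of adenosine uptake and purine enzymes, 14 of 16 were tested, with 3 higher and 6 lower in tumor against LLC blood (all genes 61.3% called). Ampd3, which deaminates AMP inside the cell, fell from 178.0, 193.9 and 193.3 CPM to 17.6, 39.6 and 30.7 CPM (log2 fold change -2.51 ± 0.17 SE, adjusted p 2.78e-06, edgeR). Dpp4, the peptidase CD26, which binds adenosine deaminase in humans, fell from 61.1 ± 8.33 to 9.42 ± 2.68 CPM (SD, n = 3; -2.51 ± 0.16 SE, adjusted p 1.65e-06, edgeR). Adal, a relative of Ada, fell (-1.497 ± 0.15 SE, adjusted p 2.87e-05), and Slc29a2, a nucleoside transporter, rose (1.13 ± 0.29 SE, adjusted p 0.00697). In blood 2 genes were higher and 2 lower (all genes 23.6% called). Adk, which phosphorylates adenosine to AMP, rose from 14.5, 12.5 and 14.96 CPM in healthy blood to 26.7, 25.5 and 26.5 CPM in LLC blood (0.88 ± 0.11 SE, adjusted p 0.000696), and Hprt, which salvages hypoxanthine, fell (-0.70 ± 0.12 SE, adjusted p 0.00317).

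**Figure D4:**
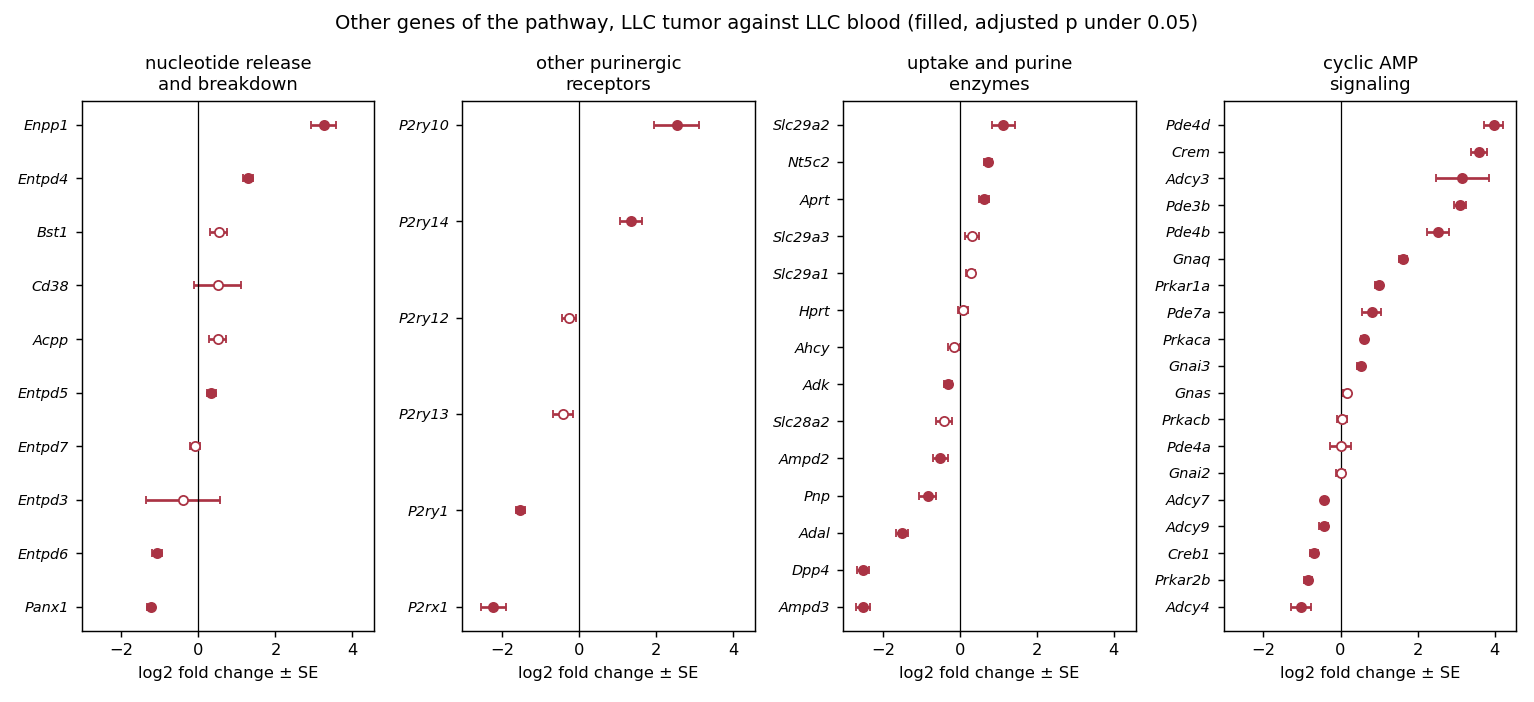
Log2 fold change ± SE (edgeR, horizontal axis) of the 49 tested genes of the 4 other lists in LLC tumor against LLC blood; filled points have an adjusted p under 0.05. Each list holds genes on both sides of 0, with Pde4d and Crem highest and Ampd3 and Dpp4 lowest.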

How the data were processed

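RNA was sequenced from sorted monocytes with TruSeq libraries on a HiScanSQ instrument, per the labels' protocols. The authors deposited a table of estimated counts per gene symbol (expected counts, some not whole), not normalized, per the file headers and values. The submitters' processing notes list Trim Galore, cutadapt, STAR, Salmon, edgeR and mm10 with no role, and which of them made the table is not given in the sources used here. A deposited CPM table of part of these genes was not used.

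Counts were rounded, and CPM was computed over all entries. One edgeR 4.0.16 quasi-likelihood fit (R 4.3.3) of the 9 libraries, with group as its term, TMM factors and the filterByExpr filter, gave log2 fold changes for all 3 comparisons across all genes. The SE is the log2 fold change divided by the square root of F. P-values were adjusted by Benjamini-Hochberg within a comparison and called under 0.05. The fit was tested on simulated data. Alternatives were scaling by library totals or upper-quartile factors, DESeq2 1.42.0, limma-voom (limma 3.58.1) with sample quality weights, no filter, only the 6 libraries compared, the replicate number as a block, and each library left out in turn.

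The 10 genes, the other lists and the markers were chosen with earlier results of these data known. Of each other list, the 4 genes with the largest absolute log2 fold change among those called in LLC tumor against LLC blood and the 2 in LLC blood against healthy blood are named, and markers were summed per library. One monocyte marker, and the sum that holds it, is not reported here. For likeness of pattern, the 3 closest genes per member were taken. Symbols were matched to Ensembl identifiers and to RefSeq GRCm38.p6 positions for 10 of 10 genes.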

Additional observations from a re-analysis of the deposited data

How the results depend on the processing

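Across 16 alternatives in each of the 3 comparisons, no called change of the 10 genes reversed. Of 160 values for each comparison, 143 (LLC blood against healthy blood), 149 (LLC tumor against LLC blood) and 154 (LLC tumor against healthy blood) kept their side of the threshold. In the same order, 4, 7 and 0 lost a call and 13, 4 and 6 gained one. Some values that were not called changed sign. From LLC blood to tumor, Ada moved from 0.23 to as low as -0.20. From healthy blood to tumor, P2rx4 moved from 0.20 to as low as -0.05, and P2ry6 from -0.05 to as high as 0.08. The calls of Entpd1, Nt5e, Adora2b, P2rx7 and P2ry2 in the tumor comparisons and of Adora3 and P2ry2 in blood held under all 16. In blood, 3 of the 10 genes were called; DESeq2 and limma-voom with sample quality weights each called 5, and leaving out one library gave 2 to 6, the highest without LLC tumor 1. All genes called in blood were 2917, but 3457 with DESeq2, 5884 with limma-voom and 4889 with only the 6 libraries compared. With a library left out, this count ran from 1494 (LLC blood 2) up to 5064 (LLC tumor 1). It was 1873 without healthy blood 2, 1697 without healthy blood 3 and 1577 without LLC blood 3. The other pathway genes called in blood were 11, but 21 with limma-voom, 18 with only the 6 libraries compared, and with a library left out from 7 (LLC blood 2) up to 18 (LLC tumor 1). The LLC tumor libraries share the estimate of the spread with the blood libraries by construction. Where no reason is given, the cause was not tested. With library totals only, the median of all genes in tumor against LLC blood moved from -0.03 to -0.23 on the log2 scale.

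With the replicate number as a replicate block, 4, 7 and 6 of the 10 genes were called in the 3 comparisons, the added call being P2ry6 in blood (-0.53, adjusted p 0.0311). All genes called in blood were 2788 with that block and 2917 without it. The samples share only a number: deviations from the group means correlated at -0.102 to 0.298 over the 9 same-numbered pairs and at -0.305 to 0.191 over the other 18. Low counts limit Ada in all groups and Nt5e in blood.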

Other observations

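Cyclic AMP carries the signal of the Adora2a and Adora2b receptors inside the cell, and all 19 listed genes of that step were tested. In LLC tumor against LLC blood 10 were called higher and 5 lower (edgeR quasi-likelihood), beside 61.3% of all tested genes called. In LLC blood against healthy blood, where 23.6% of all tested genes were called, 1 was called, the stimulatory G protein Gnas, which was lower (log2 fold change -0.57 ± 0.08 SE, adjusted p 0.00137). Phosphodiesterases, which break down cyclic AMP, were among the genes that rose in tumor. Pde4d rose from 1.63, 1.38 and 1.06 CPM in LLC blood to 20.04, 16.6 and 17.7 CPM (3.98 ± 0.25 SE, adjusted p 1.42e-06), and Pde3b from 13.9, 14.9 and 13.7 CPM to 113.6, 101.7 and 97.4 CPM (3.09 ± 0.16 SE, adjusted p 4.99e-07). Crem, a transcription factor gene induced by cyclic AMP, rose from 4.78, 5.26 and 4.25 CPM to 58.2, 44.5 and 45.6 CPM (3.60 ± 0.20 SE, adjusted p 8.55e-07). Adcy3, an adenylyl cyclase, was at 1.72, 0.899 and 0.531 CPM in LLC blood and 2.17, 10.3 and 12.2 CPM in tumor (3.16 ± 0.68 SE, adjusted p 0.00290, and 3.96 with limma-voom). Its low tumor library is LLC tumor 1, which also had the fewest fibroblast and LLC cell markers; the part of those cells in its difference was not tested. Adcy7 was at 428.4 ± 10.6 CPM in LLC blood and 280.7 ± 39.2 CPM in tumor (SD, n = 3); it and Creb1 lie outside the naming rule and were chosen after their values were seen, and both were lower (-0.42 ± 0.07 SE and -0.70 ± 0.11 SE, adjusted p 0.000700 and 0.000355, edgeR).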
